A study of Mus musculus with 65 samples.

Results

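The 8 genes described here carry the transforming growth factor-β (TGF-β) signal from its release to the nucleus. They are the ligands Tgfb1, Tgfb2 and Tgfb3, the receptor chains Tgfbr1 and Tgfbr2, the signal transducer Smad3, and the activators Nrros and Itgb8. They were chosen by name and by role, not by a measured value, and all 8 were found by symbol among the 50686 genes of the retinal counts. RNA was measured in whole retinas of 65 adult C57BL/6J mice. The control group CD (n = 5) received the control diet. The depletion groups were fed PLX5622, an inhibitor of the CSF1 receptor on which microglia depend for survival, for the number of days in their names (DEP2, DEP7, DEP10, DEP14 and DEP21, 4 mice each, and DEP5, 3 mice). The repopulation groups were returned to the control diet after 14 days of PLX5622, again for the number of days in their names (REPOP7, 6 mice, and REPOP3, REPOP5, REPOP10, REPOP14, REPOP21 and REPOP60, 4 mice each). Lipopolysaccharide (LPS), a bacterial cell wall component that sets off inflammation, was given systemically to control mice (LPSCD, n = 3) and to mice that had also received PLX5622 (LPSREPOP, n = 4, labelled as PLX5622 with LPS). The question was which of these genes are lost from the retina together with its microglia, the resident immune cells, and which stay.

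TGF-β ligands are secreted in a latent form, held in a complex that keeps them from their receptors. NRROS tethers latent TGF-β1 on the surface of microglia and other myeloid cells. Integrin αvβ8, of which Itgb8 encodes the β8 chain, binds the latent complex and activates it. The active ligand binds TGFBR2, which then phosphorylates TGFBR1. The activated TGFBR1 phosphorylates SMAD3, which enters the nucleus with SMAD4. Microglia need this signal to keep the genes that mark them in the healthy nervous system.

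On mm10, Tgfb1 lies at chr7:25687002-25705077 on the plus strand and Tgfbr1 at chr4:47353222-47414931 on the plus strand. The other members lie on minus strands, Tgfb2 at chr1:186622792-186705989, Tgfb3 at chr12:86056745-86079041, Tgfbr2 at chr9:116084293-116175360, Smad3 at chr9:63646767-63757994, Nrros at chr16:32142785-32165594 and Itgb8 at chr12:119158022-119238802. All 8 are annotated as protein coding. Tgfb2 shares 124 exonic bases with the antisense gene Gm29491, and Tgfb3 shares 163 with Gm37804 and 257 with Gm48008. The strand setting of the counting was not given, so reads in those bases cannot be assigned. Gm29491 and Gm37804 had at most 19 and 20 reads in any mouse.

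The total count per mouse ran from 5106429 to 8760443. The titles of the samples end in RE (39 mice) or re (26 mice), and the first principal component, with 55.7% of the variance over 12347 genes, put every RE mouse on one side of every re mouse. The labels do not say what the suffix stands for. CD held 3 RE and 2 re mice, DEP5 held RE mice, and REPOP60, LPSCD and LPSREPOP held re mice. The suffix was therefore a term of every comparison that held both kinds. Levels within a gene are given as CPM, the count of the gene scaled to a common library total, and a gene was called at a Benjamini-Hochberg false discovery rate (FDR) under 0.05 in edgeR's quasi-likelihood test over all genes tested. Nothing in the labels says that replicates came from separate cages or litters, so p-values measure the spread between these mice.

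Compared per length, in FPKM (fragments scaled to gene length and library total), Tgfb2 was the most abundant member, with a mean of 22.3 over the 65 mice, and it was above Smad3 in all 65. Smad3 (7.63) was followed by Tgfb3 (6.12) and Tgfbr1 (5.72), which changed places between mice, Tgfb3 being the higher in 40 of 65. Itgb8 (2.57) came next. Nrros (1.41), Tgfb1 (0.868) and Tgfbr2 (0.722) were the least abundant, and the order of the last pair was not fixed, with Tgfb1 the higher in 42 of 65 mice. The ligand that was abundant in the retina was thus Tgfb2, and the ligand that NRROS holds, Tgfb1, stood at 10 to 17 reads in each CD mouse.

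**Figure D1:**
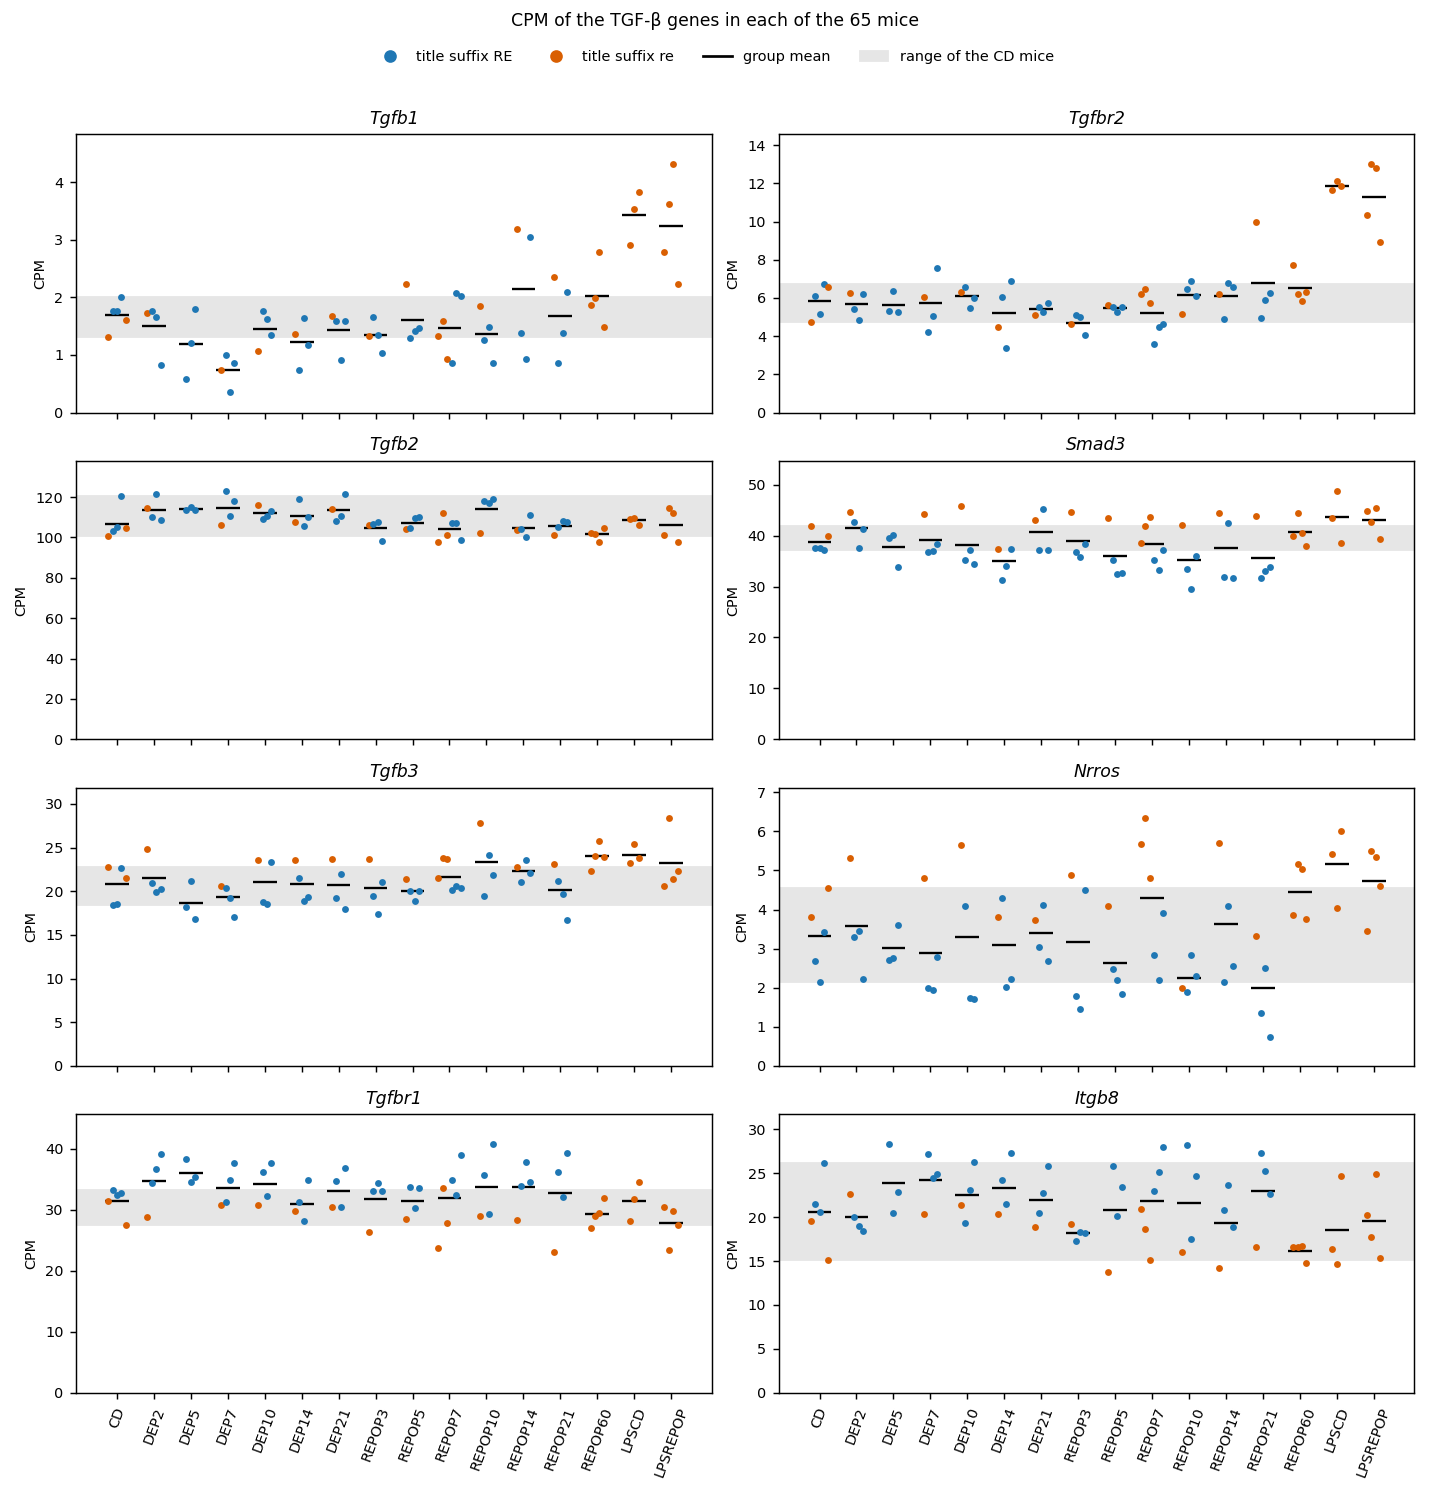
CPM (vertical axis, from 0) of each member in each of the 65 mice over the 16 groups (horizontal axis), with points coloured by title suffix, black lines for group means and shading for the range of the CD mice. All points of Tgfb1 and Tgfbr2 lie above the shading in both LPS groups, all Tgfb1 points of DEP7 lie under it, and Nrros splits by suffix inside most groups.

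The microglial genes Tmem119 and Cx3cr1 were nearly gone in the depleted mice, and the 8 members were not. Tmem119, a surface protein of resident microglia, and Tgfb1 had the same depth in CD, 65 and 68 reads summed over the 5 mice. In the 23 depleted mice, Tmem119 had 2 reads in all and was at 0 in 21 mice, while Tgfb1 had 234 reads and was at 0 in none. Nrros and Cx3cr1, the microglial fractalkine receptor, were also close in CD, with 132 and 159 reads. Nrros had 597 reads in the depleted mice, where Cx3cr1 had 9 and was at 0 in 18. At this depth a loss of Tgfb1 or Nrros as complete as that of Tmem119 or Cx3cr1 would have been visible. Not all microglial markers fell so far. The summed CPM of a list of 30 such markers averaged 254.5 in CD, 196.4 in DEP2 and 192.7 in DEP5.

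The pooled test of the 23 depleted mice against CD called 0 of the 8 members with edgeR, with 0 at an unadjusted p under 0.05, and 0 of 8 with DESeq2. Of all 22767 genes tested, 0.264% were called (0.246% lower), and 6.26% had an unadjusted p under 0.05. Tgfb1 had the largest difference among the members. Its CPM ran from 1.32 to 2.002 in CD (median 1.76) and from 0.362 to 1.80 in the depleted mice (median 1.35), so that the groups overlapped. Its fitted level in the depleted mice was 73.9% of CD (95% interval 53.4 to 102, log2 fold change -0.44 ± 0.23 SE, FDR = 0.820 in edgeR). Within suffixes the log2 fold change was -0.56 in RE mice and -0.16 in re mice, neither called.

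The activators did not follow microglia. Nrros ran from 2.14 to 4.55 CPM in CD (median 3.42) and from 1.71 to 5.65 CPM in the depleted mice (median 3.04), and its fitted level was 106% of CD (82.7 to 135). The interval excludes a fall to the 12.9% at which P2ry12, a purinergic receptor of resident microglia, was left by counts. It also excludes the 54.3% by counts of Csf1r, the receptor that PLX5622 blocks. By FPKM, Csf1r fell further, from a mean of 1.48 in CD to between 0.018 (DEP21) and 0.090 (DEP2) in the depletion groups. The counts and the FPKM thus disagree for Csf1r, and the cause was not tested. Mean FPKM of Nrros was 1.32 in CD and 1.13 (DEP14) to 1.76 (DEP21) in the depletion groups. Itgb8 ran from 15.1 to 26.2 CPM in CD and from 18.4 to 28.3 CPM in the depleted mice, with a fitted level of 107%. In bulk tissue, fewer cells of a type and less RNA per cell cannot be told apart, and RNA of one gene from several cell types adds up.

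The receptor chains and Smad3 were also retained. Tgfbr2 ran from 4.74 to 6.71 CPM in CD (median 6.10) and from 3.39 to 7.55 CPM in the depleted mice (median 5.55), at a fitted level of 95.8% (81.1 to 113). Tgfbr1 stood at 105% and Smad3 at 102% of CD. The abundant ligands Tgfb2 and Tgfb3 stood at 105% and 101%. With 4286 reads in CD and 21107 in the depleted mice, Tgfb2 had the narrowest interval of the members, 99.2 to 112%.

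**Figure D2:**
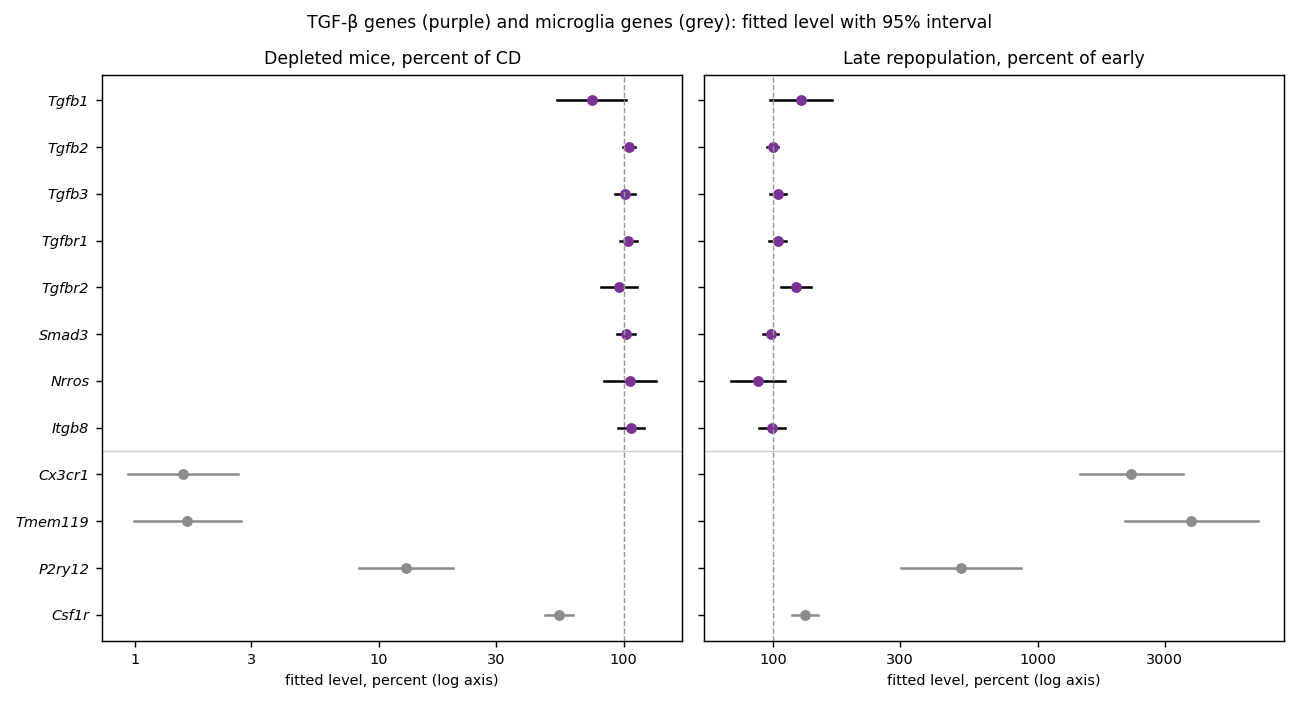
Fitted level with its 95% interval (horizontal log axis, percent) in depleted mice relative to CD (left) and in late relative to early repopulation (right), for the 8 members in purple and 4 microglial genes in grey. The members lie between 73.9% and 107% on the left, where Cx3cr1 lies at 1.58% and Tmem119 at 1.64%.

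Day by day, 0 tests of the 8 members in the 13 depletion and repopulation groups against CD were called with edgeR, 2 had an unadjusted p under 0.05, and DESeq2 called 0. Of all genes in these comparisons 0.237% were called, from 0% in REPOP60 to 1.9% in REPOP21, and 6.57% had an unadjusted p under 0.05. One of the 2 was Tgfb1 in DEP7. Its 4 mice had 0.741, 0.993, 0.362 and 0.852 CPM, from 3 to 8 reads each, and all lay below the 5 CD mice at 1.32, 1.76, 1.76, 2.002 and 1.61 CPM. The fitted level was 43.1% of CD (26.8 to 69.3, log2 fold change -1.22 ± 0.33 SE, unadjusted p = 0.0011, FDR = 0.190 in edgeR). Of all genes tested in DEP7, 0.759% lay wholly below CD. The other depletion groups overlapped CD for Tgfb1, including DEP21 at 0.913 to 1.67 CPM.

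The second was Nrros in REPOP21. Its 4 mice had 3.33, 1.36, 2.52 and 0.737 CPM, which overlapped CD, and the fitted level was 62.5% (42.3 to 92.4, FDR = 0.192 in edgeR). The 3.33 CPM belonged to the re mouse, which also had the smallest library of the study, with 17 reads of Nrros. Microglial genes had returned in part by then, Cx3cr1 being at 1.61 to 3.07 CPM in REPOP21 against 1.89 to 6.95 CPM in CD. Tmem119, at 0.495 to 1.175 CPM against 1.296 to 1.875 CPM, still lay below all CD mice. The fitted levels in REPOP21 were 55% of CD for Cx3cr1, 56% for Tmem119 and 51% for P2ry12.

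**Figure D3:**
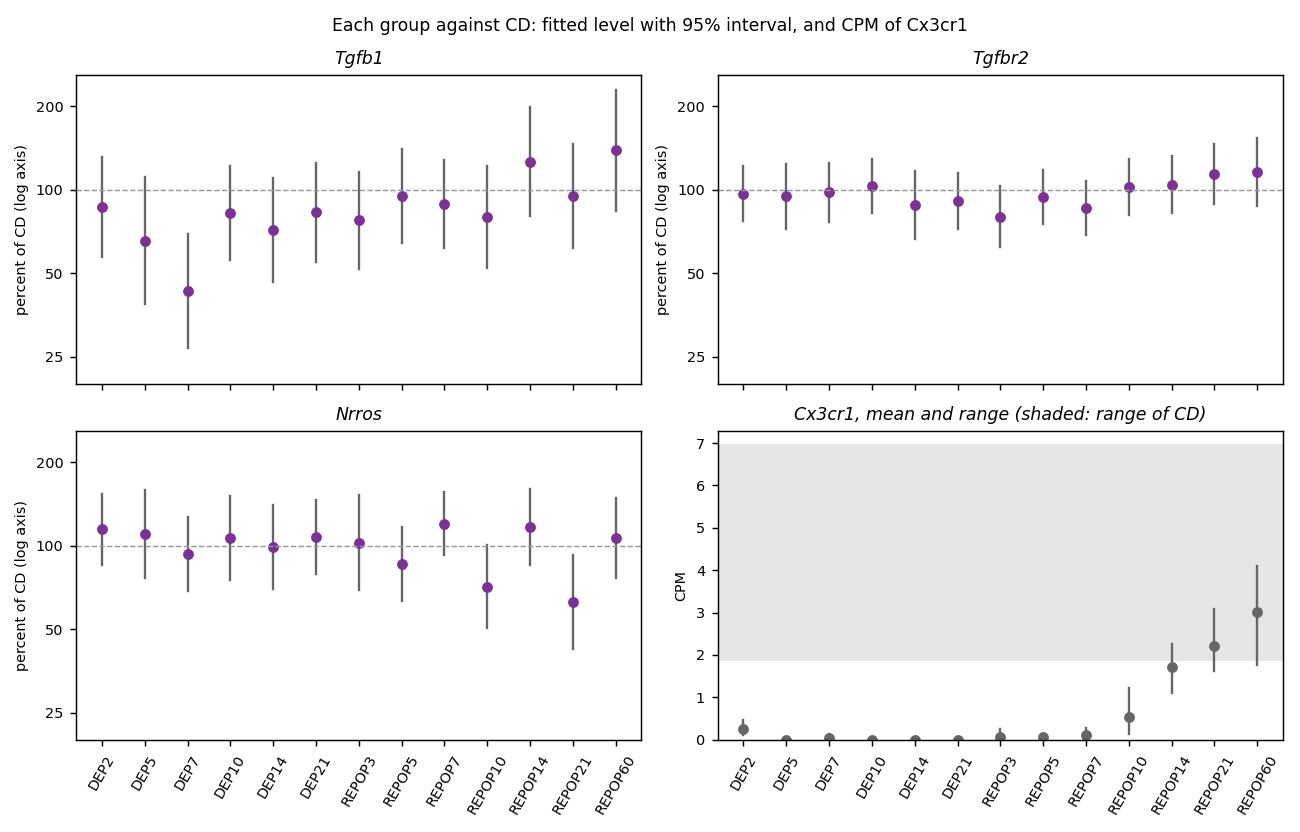
Fitted level relative to CD with 95% interval (vertical log axis, percent) of Tgfb1, Tgfbr2 and Nrros in the 6 depletion and 7 repopulation groups, and the mean and range of Cx3cr1 in CPM. Cx3cr1 is at or near 0 from DEP5 to REPOP7 and climbs from REPOP10, while the intervals of the 3 members include 100% apart from Tgfb1 in DEP7 (43.1%) and Nrros in REPOP21 (62.5%).

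No member was called as microglial genes returned. Late repopulation (REPOP14, REPOP21 and REPOP60, 12 mice) was set against early repopulation (REPOP3, REPOP5 and REPOP7, 14 mice), a comparison that shares no mice with the depletion one. edgeR called 0 of the 8 members, with 1 at an unadjusted p under 0.05, and DESeq2 called 0, against 0.241% of all genes, each of them higher in late repopulation, and 4.65% at an unadjusted p under 0.05. The member with the small p was Tgfbr2. It ran from 3.58 to 6.49 CPM early (median 5.19) and from 4.91 to 9.99 CPM late (median 6.25), an overlap. The fitted late level was 122% of the early one (107 to 139, log2 fold change 0.29 ± 0.09 SE, unadjusted p = 0.00382, FDR = 0.566 in edgeR), and the log2 fold change was 0.30 within RE mice and 0.27 within re mice.

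Tgfb1 stood at 127% late against early (97.5 to 166, unadjusted p = 0.0750, not called), from a median of 1.38 to one of 1.92 CPM. Cx3cr1 rose to 2247% in the same comparison, and 22 of the 30 microglial markers were called higher. Nrros was at 87.2% (68.9 to 110). The other members lay between 97.6% (Smad3) and 104.4% (Tgfb3). Set against CD, late repopulation had 0 called members with either tool, and 0 at an unadjusted p under 0.05, beside 0.0303% of all genes called and 9.21% at that p, with members from 94.1% (Nrros) to 111% (Tgfb1).

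Pooling the 23 depleted and 14 early repopulation mice, all low in microglia, against the 17 mice of CD and late repopulation narrowed the intervals. The 4 mice of REPOP10 were in neither pool, though Cx3cr1 was at 13.6% and Tmem119 at 12.8% of CD there. This grouping was chosen after the data were seen and reuses the mice above. The fitted level of Tgfb1 was 73.9% (60.7 to 89.9, unadjusted p = 0.00303, FDR = 0.344 in edgeR) and that of Tgfbr2 was 88.6% (80.2 to 97.9, FDR = 0.701 in edgeR). edgeR called 0 of the 8 members, the third with an unadjusted p under 0.05 being Tgfb2 at 104.3% (100.8 to 108.0), beside 0.489% of all genes called and 5.94% at that p. Nrros was at 112% (94.99 to 132).

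LPS was followed by higher levels of a receptor chain and a ligand. Tgfbr2 was at 11.6, 12.1 and 11.9 CPM in the LPSCD mice and at 10.3, 13.01, 12.8 and 8.93 CPM in the LPSREPOP mice, against 4.74 to 6.71 CPM in CD. Tgfb1 was at 2.91, 3.52 and 3.83 CPM in LPSCD and at 2.78, 3.62, 4.31 and 2.23 CPM in LPSREPOP, against 1.32 to 2.002 CPM in CD. Both genes lay above all CD mice in both LPS groups, as did 7.44% of all genes in LPSCD and 3.4% in LPSREPOP. Over all members and 15 groups, 7 of 120 pairs did not overlap CD, against 2.5% for all genes. Besides these 4 and Tgfb1 in DEP7 they were Tgfb3 in LPSCD (23.3 to 25.5 CPM against 18.4 to 22.8) and Tgfbr1 in DEP5 (34.5 to 38.3 CPM against 27.5 to 33.2). In DEP5, 1.77% of all genes lay wholly above CD, and its mice were RE mice.

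The planned test of LPSCD against CD with the suffix term, which leaves the 2 re mice of CD as reference, called 0 of 8 members with edgeR, 2 having an unadjusted p under 0.05, and 1 (Tgfbr2) with DESeq2. It called 0.0466% of all genes, and 10.5% had an unadjusted p under 0.05. The fitted level of Tgfbr2 was 208% of CD (153 to 284, log2 fold change 1.06 ± 0.21 SE, FDR = 0.129 in edgeR) and that of Tgfb1 was 231% (141 to 378, log2 fold change 1.21 ± 0.33 SE, FDR = 0.239 in edgeR). Because all LPS mice were re mice, 3 further comparisons among re mice were added after the data were seen, with the 2 re mice of CD and the 4 of REPOP60 as reference. They share mice with each other and with the planned test. The labels give no time after PLX5622 for LPSREPOP, so in its comparison with REPOP60 LPS and that time cannot be told apart. LPSCD mice had no PLX5622, while the REPOP60 mice in their reference had, so diet history differed there as well. Of the 2 re mice of CD, 1 is labelled 2M, unlike the numbered CD mice.

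Among re mice, Tgfbr2 was called higher in the LPS mice in each of the 3 comparisons. LPSCD stood at 189% of the 6 reference mice (153 to 232, log2 fold change 0.92 ± 0.14 SE, FDR = 0.00105 in edgeR), both LPS groups together at 182% (153 to 217, FDR = 0.000273 in edgeR), and LPSREPOP at 170% of REPOP60 (138 to 211, FDR = 0.00277 in edgeR). The shares of all genes called were 7.38%, 4.27% and 2.92%. The call held in every one of the 9, 13 and 8 refits that left out 1 mouse, with a highest FDR of 0.0409 in edgeR. The 7 LPS mice lay above the 6 reference mice, whose CPM ran from 4.74 to 7.71. Of the re mice of other groups, which were not in these fits, the one in REPOP21 had 9.99 CPM, above the lowest LPS mouse at 8.93.

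Tgfb1 was called higher in LPSCD (184%, 128 to 264, FDR = 0.0391 in edgeR) and in both LPS groups together (177%, 132 to 238, FDR = 0.0237 in edgeR), and not in LPSREPOP against REPOP60 (157%, 108 to 228, FDR = 0.227 in edgeR). These calls depended on which mice entered. They held in 2 of 9 and 8 of 13 refits, the log2 fold change staying between 0.75 and 1.03. They were lost in the larger comparison without CD replicate 1 (FDR = 0.0619 in edgeR), CD replicate 2M (0.0550), REPOP60 replicate 1 (0.0514), REPOP60 replicate 4 (0.0634) or LPSREPOP replicate 3 (0.0575). In LPSCD alone they were kept without LPSCD replicate 1 (0.0145) or REPOP60 replicate 3 (0.0252), and lost without any of the other 7, with a highest FDR of 0.148. The re mice of REPOP14, REPOP21 and REPOP5, at 3.18, 2.35 and 2.24 CPM of Tgfb1, lay above the lowest LPSREPOP mouse at 2.23.

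No other member was called in these comparisons. Nrros was at 111% with both LPS groups together (89.2 to 138), Itgb8 at 114% (95.6 to 136), Smad3 at 105%, Tgfb2 at 103.7%, Tgfb3 at 99.5% and Tgfbr1 at 98.7%. Of the receptor chains, Tgfbr1 at 28.2 to 34.6 CPM in LPSCD overlapped its range of 27.5 to 33.2 CPM in CD, where Tgfbr2 did not, and the difference between the chains was not tested.

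**Figure D4:**
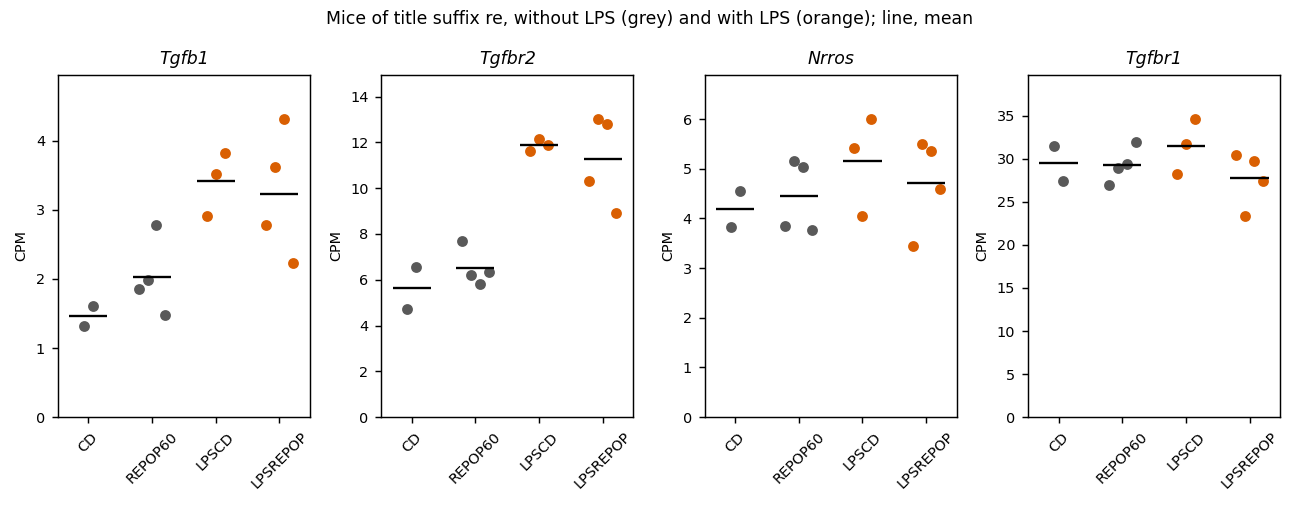
CPM (vertical axis, from 0) of Tgfb1, Tgfbr2, Nrros and Tgfbr1 in mice of suffix re, without LPS in grey (CD, REPOP60) and with LPS in orange (LPSCD, LPSREPOP), with lines for means. For Tgfbr2 the 7 LPS mice, at 8.93 CPM or more, clear the 6 other mice, while for Nrros and Tgfbr1 the groups overlap.

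A difference between LPS mice with and without earlier PLX5622 was not detectable. LPSREPOP against LPSCD had 0 called members with edgeR and DESeq2, 0 at an unadjusted p under 0.05, and 0% of 24500 genes called (8.05% at an unadjusted p under 0.05). Tgfb1 was at 94.2% (63.3 to 140), Tgfbr2 at 94.5% (74.6 to 120) and Tgfbr1 at 87.96% (73.3 to 106). The difference between LPSREPOP against REPOP60 and LPSCD against CD, over the 13 re mice, was -0.29 on the log2 scale for Tgfbr2 (-0.83 to 0.24) and -0.56 for Tgfb1 (-1.48 to 0.37). These intervals still allow sizeable differences. With edgeR 0 members and 0% of genes were called in it, and 1522 of 27025 genes had an unadjusted p under 0.05.

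The promoters of Tgfb1 and Tgfbr2, the members that lay above CD in both LPS groups, are shown from RefSeq (GRCm38.p6), 250 bases before to 50 after the annotated start, 5′ to 3′ on the strand of the gene. Capitals mark matches on either strand to the GC box GGGCGG in Tgfb1 and to GAGGAA, a core of PU.1 sites, in Tgfbr2. The windows are chr7:25686752-25687051 (plus strand) and chr9:116175314-116175613 (minus strand).
Tgfb1: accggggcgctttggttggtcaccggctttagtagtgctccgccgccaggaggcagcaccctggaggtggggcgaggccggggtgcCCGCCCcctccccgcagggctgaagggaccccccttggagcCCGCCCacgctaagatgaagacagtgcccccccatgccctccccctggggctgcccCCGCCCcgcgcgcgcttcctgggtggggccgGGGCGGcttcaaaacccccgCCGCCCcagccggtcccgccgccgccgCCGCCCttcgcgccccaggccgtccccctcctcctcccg
Tgfbr2: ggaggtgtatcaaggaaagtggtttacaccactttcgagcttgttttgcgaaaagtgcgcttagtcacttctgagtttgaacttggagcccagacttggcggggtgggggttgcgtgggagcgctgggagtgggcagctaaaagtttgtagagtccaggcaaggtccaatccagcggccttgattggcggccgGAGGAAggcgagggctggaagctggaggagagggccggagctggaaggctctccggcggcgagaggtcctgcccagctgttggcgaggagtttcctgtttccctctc
Tgfb1 held 6 GC boxes and no GAGGAA, and Tgfbr2 held 1 GAGGAA, starting at -57 from the start, and no GC box. Of 32851 promoter windows of this length, 35.7% held a GC box and 28.3% a GAGGAA. Neither held TGANTCA, the AP-1 motif (7.81% of windows), an NF-kB motif of GGGA and TTCC spaced by any 2 bases (1.47%), or GTCTAGAC, a palindromic Smad motif (0.213%). The 2 promoters thus shared none of the 5 letter patterns searched, which says nothing of the factors bound.

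The rest of the pathway was followed with 34 other genes in 3 lists (latency and activation, receptors, signal transduction) and 12 general TGF-β target genes. In the depleted mice 0 of the 33 pathway genes tested and 0 of the 12 targets were called, with median log2 fold changes of -0.01 and -0.00, against -0.00 over all genes. The same counts were 0 and 0 in late against early repopulation. A list of 15 genes known to need TGF-β in microglia had 9 called lower in the depleted mice and 7 called higher in late against early repopulation. Of its genes, 8 are also in the list of 30 microglial markers, of which 24 were called lower in the depleted mice (median log2 fold change -3.23).

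With both LPS groups set against the 6 re mice, some of these genes moved, by FDR in edgeR. In the latency and activation list 2 of 15 genes tested were higher and 1 was lower, in the receptor list 1 of 5 was higher, in the signal list 0 of 13 were called, and of the general targets 5 of 12 were higher, beside 2.6% of all genes called higher. The genes named next were chosen after their values were seen. Eng, an accessory TGF-β receptor of endothelial cells, rose by 1.16 ± 0.17 (log2, SE, FDR = 0.000361 in edgeR). Lrrc32, which tethers latent TGF-β in the manner of NRROS, rose by 1.25 ± 0.27, and Tgfbi and Fn1, extracellular matrix genes, rose by 3.03 ± 0.48 and 0.82 ± 0.08. Ltbp4, a latent TGF-β binding protein of the matrix, fell by 0.49 ± 0.10.

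Markers of other cells moved with LPS as well. In the same comparison 9 of 12 endothelial markers, 12 of 30 microglial markers and 3 of 8 tested macrophage and monocyte markers were called higher. Of the other lists, 2 of 8 pericyte and smooth muscle markers and 1 of 5 astrocyte markers were higher, 2 of 10 Müller glia markers were higher and 2 lower, 1 of 8 cone markers was higher and 3 lower, 1 of 9 rod markers was higher and 1 of 16 inner neuron markers was lower. The summed CPM of the endothelial list was 710 to 838 in the LPS mice and 572 to 613 in CD and REPOP60. The summed CPM of the microglial list was 247 to 373 in the LPS mice and 228 to 264 in CD and REPOP60. The macrophage and monocyte list summed to 12.7 to 25.7 CPM against 11.98 to 19.9, with Pf4 at 0 in every mouse of LPSCD and CD and F13a1 and Ly6c2 at 0 in every mouse of CD and REPOP60. The part of these cell types in the levels of Tgfbr2 and Tgfb1 was not tested. Pooled over the depleted mice, no endothelial, Müller glia, pericyte, rod or cone marker was called, and Gfap, a marker of astrocytes and of reactive Müller glia, was higher at 168% of CD (FDR = 0.000441 in edgeR).

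Of the 8 members, 6 differed by title suffix. Between re and RE mice of the same groups, Nrros differed by 0.72 ± 0.12 (log2, re minus RE, SE), Smad3 by 0.21 ± 0.04 and Tgfb3 by 0.17 ± 0.04, and Itgb8 by -0.37 ± 0.07, Tgfbr1 by -0.30 ± 0.04 and Tgfb2 by -0.08 ± 0.03. These 6 members were called with edgeR, beside 45.5% of all genes, and Tgfb1 (0.13 ± 0.15) and Tgfbr2 (0.07 ± 0.08) were not. The mean of Nrros over all mice was 2.63 CPM in RE and 4.64 CPM in re mice. In REPOP7, which held 3 mice of each kind, Nrros ran from 2.19 to 3.92 CPM in RE mice and from 4.80 to 6.35 CPM in re mice. In REPOP10 the re mouse, at 1.985 CPM, lay below the RE mean of 2.35 CPM.

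**Figure D5:**
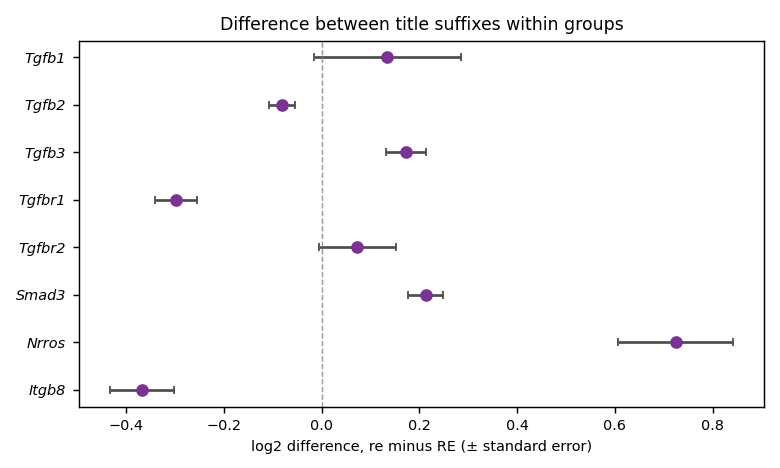
Difference between re and RE mice within groups (horizontal axis, log2, bars for the standard error) for the 8 members. Nrros lies farthest to the right at 0.72, Itgb8 farthest to the left at -0.37, and Tgfb1 and Tgfbr2 lie within about 1 standard error of 0.

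In the order of the 16 group means, LPSCD came first for Tgfb1, Tgfb3, Tgfbr2, Smad3 and Nrros, with LPSREPOP behind it for all of these but Tgfb3. The LPS groups held re mice alone. Among re mice LPSCD was not first for Nrros (5.16 CPM against 5.70 in REPOP14), Smad3 (43.7 against 45.8 in DEP10) or Tgfb3 (24.2 against 27.8 in REPOP10). REPOP14, DEP10 and REPOP10 had 1 re mouse each. For Nrros the 3 re mice of REPOP7, at a mean of 5.61 CPM, were also above LPSCD. The highest group mean was 4.64 times the lowest for Tgfb1 (DEP7), 2.60 times for Nrros (REPOP21) and 2.53 times for Tgfbr2 (REPOP3). It was 1.498 times for Itgb8 (DEP7 over REPOP60), 1.301 times for Tgfbr1, 1.29 times for Tgfb3, 1.25 times for Smad3 and 1.13 times for Tgfb2. Neighbours in these orders overlapped in their mice for all members, apart from Itgb8 in REPOP3 (17.3 to 19.2 CPM) and REPOP60 (14.8 to 16.7 CPM).

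No relation with a cell type within groups passed its test. After the mean of each group and suffix was removed, 88 relations were computed over 55 mice. They set the 8 members against 11 marker lists, each scored by the mean log level of its genes. Of these relations, 0 passed a Benjamini-Hochberg adjustment of the permutation p-values. Removing the means of group and suffix also removes the loss and return of microglial genes between groups. Within the depleted groups some microglial genes hardly varied, Cx3cr1 being at 0 in 18 of 23 mice. The test therefore cannot decide whether a member follows microglia. Tgfb1 and the microglial list had r = 0.26 and rho = 0.15 (two-sided permutation p = 0.135 and 0.389, adjusted 0.511 and 0.684), and r was 0.09 without the 2 mice farthest from the median. For Nrros and the microglial list r was 0.09 and rho 0.17. The smallest permutation p was that of Tgfbr1 and the inner neuron list, at r = -0.47 and rho = -0.48 (permutation p = 0.00398 and 0.00245, adjusted 0.3502 and 0.216), with r = -0.42 without the 2 farthest mice.

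Across the 16 group values, with the suffix removed and 15882 genes searched, the genes most like Tgfb1 were Unc93b1 (Pearson r = 0.93), Lsp1 (0.92) and Dnm2 (0.92). Those most like Tgfbr2 were Parp14 (0.95), Mical1 (0.95) and Myof (0.95), and those most like Nrros were Atp6v0d1 (0.91), Higd2a (0.91) and Abcc10 (0.90). For Itgb8 they were Ptprd (0.88), Phip (0.82) and Ptprk (0.81), and for Smad3 they were E130208F15Rik (0.90), Yipf5 (0.87) and Sppl3 (0.86). Tgfb2 was most like Nhlh2 (0.88), Dab1 (0.84) and Scn4b (0.78), Tgfb3 most like Tmem106c (0.89), Gm47327 (0.82) and Rell2 (0.81), and Tgfbr1 most like Tmem41b (0.87), Get4 (0.84) and Npc1l1 (0.82). The groups share the suffix imbalance and sequencing depth, and for Tgfb1 and Tgfbr2 the 2 LPS groups stand apart from the rest.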

How the data were processed

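Whole retinas of 65 mice were sequenced as 50 bp single-end reads (BGISEQ-500). Per the labels and the methods of the study, the deposited counts are raw reads per gene counted by the authors with HTSeq after HISAT2 alignment to mm10, and the deposited FPKM are StringTie estimates made by the authors; versions and the strand setting are not given in the sources used here. Here, CPM is the count over the library total, and 3 reads, the floor, equal 0.342 to 0.5875 CPM (counting error only). Symbols and positions came from GENCODE M21, promoters from RefSeq (windows matched for 7 of 8 members).

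Comparisons used edgeR 4.0.16 in R 4.3.3 (quasi-likelihood F test, TMM), on genes with a count (minimum 1) in 0.5 or more of the mice in one group or the other, and the title suffix as covariate, since the study describes an additive batch model without naming the batches. All 8 members passed this filter in every comparison. A standard error is the log2 fold change over the square root of F. The fits were tested on simulated data. Relations used log2(CPM + 1), a pseudocount of 1, and 100000 permutations within group and suffix (Python 3.11.15). DESeq2 1.42.0 and the other alternatives appear in the closing section. The members and the gene lists were chosen with earlier results of these data known. The text names all members, 4 microglial genes (another is not reported here), Gfap, the 3 genes most like each member and pathway genes called in a main comparison, of which there were none. Other genes named, in the LPS paragraphs, were chosen after their values were seen.

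Replicate numbers mark different mice. Same-numbered mice of a group and CD deviated together by over 0.1 in 42 of 57 pairs (-0.66 to 0.78), and in every pair for DEP2, DEP7, DEP10, DEP14, REPOP3, REPOP5, REPOP10 and REPOP21, where number 1 is also the re mouse. In these groups same-numbered mice also shared a suffix. The suffix was left in these deviations, so a pairing of mice and the suffix cannot be told apart. No 2 libraries of a group agreed within sampling noise.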

Additional observations from a re-analysis of the deposited data

Results flagged for a closer look

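Of 112 combinations of a member and a group of 4 to 6 mice, 7 held a mouse far from its fellows by Dixon's criterion, and chance flags about 1 in 20. Tgfb1 was low in DEP2 replicate 4 (0.817 CPM, next 1.66) and in DEP21 replicate 3 (0.913 CPM, next 1.59). Tgfb2 was high in CD replicate 4 (120.7 CPM, next 105.1), low in REPOP3 replicate 4 (98.1 CPM, next 106.0) and low in REPOP10 replicate 1 (102.4 CPM, next 117.1). Tgfbr1 was low in REPOP3 replicate 1 (26.3 CPM, next 33.0). Itgb8 was low in REPOP60 replicate 4 (14.8 CPM, next 16.6). REPOP10 replicate 1 and REPOP3 replicate 1 were the re mouse of their groups.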

How the results depend on the processing

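No member was called under any alternative for depleted against CD, late against early repopulation, late repopulation against CD, and LPSREPOP against LPSCD, nor with any mouse left out. For LPSCD against CD, 1 member, Tgfbr2, was called with DESeq2 (log2 fold change 1.07, FDR = 0.0465, 97 genes called in all), without a filter on low counts (1.06, FDR = 0.00104, 786 genes), with all 65 mice in one fit (0.94, FDR = 7.03e-05, 1813 genes), with the group alone (0.98, FDR = 0.0123, 574 genes) and with the replicate block in place of the suffix term (1.11, FDR = 0.0168, 635 genes), against 11 genes in the fit reported, and the cause was not tested. RLE size factors, filterByExpr, the study's own thresholds and the re mice alone called 0. The added comparisons among re mice called 2, 2 and 1. Leaving out each mouse gave 0 to 2, the 2 without LPSCD replicate 1 (Tgfbr2 FDR = 0.0082, Tgfb1 FDR = 0.0332, edgeR), where 1356 genes were called instead of 11.

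For the 13 groups against CD, the replicate block called 1 member, Itgb8 in REPOP60 (log2 fold change -0.46, FDR = 0.0196), where the numbers share no more than a label, the block replaced the suffix term, REPOP60 held re mice alone, and 1885 genes were called instead of 0, and the other alternatives and all refits without 1 mouse called 0. In the groups where all same-numbered mice deviated together, the block changed no call of a member. Counts of all genes called did move there, for DEP7 from 26 to 186 and for DEP14 from 16 to 153. RE mice alone could not be fitted for REPOP60. The count of relations with marker lists was 0 with a pseudocount of 0.1 and with FPKM. With FPKM in place of CPM, 4 of 120 pairs lay wholly outside CD instead of 7. The sign of an uncalled difference changed in 29 of 400 pairs of a member and a setting. The 400 include the study's own thresholds, which reuse the reported fit and so could not change a sign. The counts of all genes called moved by over 1.5 times, for LPSCD against CD from 11 to between 0 (re mice alone) and 1813 (all 65 mice), for depleted against CD from 60 to 18 (filterByExpr), for late against early repopulation from 55 to 9 (filterByExpr), for late repopulation against CD from 7 to between 0 and 212 (no filter), and for LPSREPOP against LPSCD from 0 to 372 (all 65 mice) and, leaving out single mice, to 843. It also moved in all 13 groups against CD, among them REPOP60 (0 to 1885, replicate block), REPOP21 (451 to between 0, no suffix term, and 1288, no filter), REPOP10 (87 to between 6 and 627), DEP7 (26 to between 12 and 187) and DEP14 (16 to between 10 and 153). Depth limits Tgfb1 most, at 3 to 33 reads in a mouse.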
